A study of Mus musculus with 12 samples.

Results

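Genes whose products act in cell division, 10 of the 2398 in the count table, were followed in sorted mouse oligodendrocytes. Of these, 5 act in mitosis (Cdk1, Cenpf, Nek2, Nuf2 and Aspm) and 5 act in DNA replication or carry the fold of a replication helicase (Mcm3, Mcm6, Mcm9, Prim2 and Orc2). They were chosen by name, as rows whose gene identifier maps to these mouse symbols. All 10 were found in the table and all 10 passed the filter on low counts. The genes analysed are a part of each library, and every gene with a value below lies on chromosome 1 or 10. Shares of all genes tested refer to that part, not to the genome. The cells came from C57BL/6 mice that carried the Ndrg1-EGFP reporter, which marks oligodendrocytes that make myelin, and were sorted for EGFP and against propidium iodide, which stains dead cells. KO cells came from CnpCre/+;Lmnafl/fl mice, where 1 allele of the oligodendrocyte gene Cnp drives Cre and both alleles of Lmna, the gene of lamins A and C, are floxed. WT cells came from Cnp+/+;Lmnafl/fl mice, which carry the same floxed alleles and no Cre, so that Cre and the loss of an intact Cnp allele go along with the Lmna genotype and cannot be told apart from it. The labels give the age as postnatal day 60 in one field and as 8 weeks in another, and each genotype had 3 biological replicates of 2 libraries each. The sources used here do not state how many mice made up a replicate.

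Mature oligodendrocytes have left the cell cycle, and the proliferating cells of their lineage are the oligodendrocyte progenitors. Before S phase, the origin recognition complex, with Orc2 as a subunit, marks replication origins and helps to load the hexameric MCM helicase, of which Mcm3 and Mcm6 are subunits. Primase, with Prim2 as its large subunit, then lays the RNA primers that DNA polymerases extend. Mitotic entry is driven by Cdk1 with its cyclins. Nek2 separates the centrosomes, Nuf2 and Cenpf act at the kinetochore where chromosomes meet spindle microtubules, and Aspm acts at the spindle poles. In dividing cells the mitotic genes are transcribed mainly in G2 and M phase, while many replication genes are transcribed at the G1 to S transition.

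Promoters of these genes are known for 2 kinds of element, the E2F site of replication genes and the CHR of mitotic genes, which often lies near CCAAT boxes. RefSeq gives a promoter window, from 250 bases before to 50 bases after the start of transcription in GRCm38.p6, for 9 of the 10 genes, Prim2 being the one without. Windows were searched on both strands for the E2F site TTTNNCGC with C or G at each N, for the CHR as TTTGAA or TTCGAA, and for CCAAT. Of all 32851 mouse windows in that collection, 2.26% held an E2F match, 19.2% a CHR match and 37.4% a CCAAT match. Each gene had 1 window except Orc2, which had 2. A CHR match stood in the window of 3 of 5 mitosis genes (Cdk1, Cenpf and Aspm) and of 0 of 4 replication genes. An E2F match stood in that of 1 of 5 mitosis genes (Cdk1) and of 2 of 4 replication genes (Mcm3 and Mcm6). A CCAAT match stood in that of 4 of 5 mitosis genes, all but Nuf2, and of 4 of 4 replication genes. Both Orc2 windows held a CCAAT match and neither held an E2F or CHR match. The windows that hold a CHR or E2F match are shown on the strand of the gene, 5′ to 3′ and with matches in capitals, because they hold the matches counted above. In Cdk1 the CHR letters lie at positions -71 and -15 from the start and the E2F letters at -131, and in Mcm6 a pair of overlapping E2F matches begins at -110 and -106. These are matches of letters, not sites shown to be bound.
Cdk1, chr10:69352863-69353162, minus strand: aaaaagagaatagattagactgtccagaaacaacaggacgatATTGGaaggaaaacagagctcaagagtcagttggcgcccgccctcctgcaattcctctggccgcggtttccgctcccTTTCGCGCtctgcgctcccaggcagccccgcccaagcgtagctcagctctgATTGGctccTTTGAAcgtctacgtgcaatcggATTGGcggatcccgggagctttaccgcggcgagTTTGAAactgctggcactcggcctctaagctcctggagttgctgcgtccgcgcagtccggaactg
Cenpf, chr1:189688037-189688336, minus strand: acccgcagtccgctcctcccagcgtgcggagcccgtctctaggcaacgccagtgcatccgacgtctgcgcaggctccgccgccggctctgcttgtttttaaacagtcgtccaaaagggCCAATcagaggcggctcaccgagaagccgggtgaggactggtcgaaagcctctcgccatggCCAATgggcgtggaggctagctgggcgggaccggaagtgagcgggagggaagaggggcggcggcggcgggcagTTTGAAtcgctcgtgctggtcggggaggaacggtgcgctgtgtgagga
Aspm, chr1:139454523-139454822, plus strand: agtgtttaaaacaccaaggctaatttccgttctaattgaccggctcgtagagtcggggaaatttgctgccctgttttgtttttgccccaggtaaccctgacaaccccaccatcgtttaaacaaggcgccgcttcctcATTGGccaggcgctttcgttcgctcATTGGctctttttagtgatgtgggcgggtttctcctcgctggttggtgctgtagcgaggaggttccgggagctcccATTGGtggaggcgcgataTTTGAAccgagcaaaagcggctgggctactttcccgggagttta
Mcm3, chr1:20820263-20820562, minus strand: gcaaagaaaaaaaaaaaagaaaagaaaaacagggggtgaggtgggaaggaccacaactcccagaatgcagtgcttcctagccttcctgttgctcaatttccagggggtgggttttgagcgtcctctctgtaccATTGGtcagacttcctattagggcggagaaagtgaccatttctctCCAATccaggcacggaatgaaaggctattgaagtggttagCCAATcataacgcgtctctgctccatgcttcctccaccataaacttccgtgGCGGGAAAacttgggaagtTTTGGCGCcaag
Mcm6, chr1:128359656-128359955, minus strand: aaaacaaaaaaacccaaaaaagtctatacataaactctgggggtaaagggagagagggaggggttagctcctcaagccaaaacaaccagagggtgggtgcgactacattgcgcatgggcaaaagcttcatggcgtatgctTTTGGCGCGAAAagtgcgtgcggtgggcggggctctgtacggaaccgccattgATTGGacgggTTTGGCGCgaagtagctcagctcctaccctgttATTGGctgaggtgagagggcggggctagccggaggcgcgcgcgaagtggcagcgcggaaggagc

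The mitosis genes stood far below the replication genes in every replicate of both genotypes. Levels of different genes were compared as CPM, the count scaled by the TMM-adjusted total of the analysed genes, divided by the length of the gene's merged exons in kb. Summed over the 5 genes, the mitosis level per kb was 3.39% ± 1.88 of the replication level in KO cells and 2.91% ± 0.156 of it in WT cells (SD, n = 3 each). The shares were 1.79%, 5.46% and 2.90% in KO replicates 1, 2 and 3, against 2.74%, 3.05% and 2.94% in WT replicates 1, 2 and 3. The mean shares differed by less than the spread among the KO replicates, and KO replicate 2 had the highest share and KO replicate 1 the lowest. Without KO replicate 2 the KO mean was 2.35%. The share depends on how length is counted, being 5.54% in KO and 4.89% in WT when length is left out.

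In order of level per kb, averaged over the 6 replicates, Aspm came lowest at 0.314 CPM per kb, followed by Cenpf at 1.11, Cdk1 at 1.30, Nek2 at 1.67 and Nuf2 at 2.00 CPM per kb. Then came Mcm9 at 9.94, Mcm6 at 20.5, Prim2 at 28.2, Mcm3 at 29.9 and Orc2 at 116 CPM per kb. Neighbours in this order overlapped in their range over replicates, except at 3 steps. Mcm9 (9.27 to 11.3 CPM per kb) lay above every mitosis gene, whose highest single value was 3.24 CPM per kb for Cdk1 in KO replicate 2. Mcm6 (15.9 to 25.4) lay above Mcm9, and Orc2 (104 to 126) lay above Mcm3 (26.3 to 33.3). Among the 1336 tested genes with a known length, between 1.05% and 15.1% of genes were lower than a given mitosis gene. Between 33.2% and 73.4% were lower than a given replication gene, so that Mcm3, with 49.5% of genes below it, stood at the middle of the genes tested. Per kb of the longest transcript, which is much shorter than the merged exons for Prim2, Prim2 moved to 68.4 CPM per kb and Mcm3 stood at 32.7, and the lowest replication gene, Mcm9 at 18.6, was still above the highest mitosis gene, Nuf2 at 3.27.

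**Figure D1:**
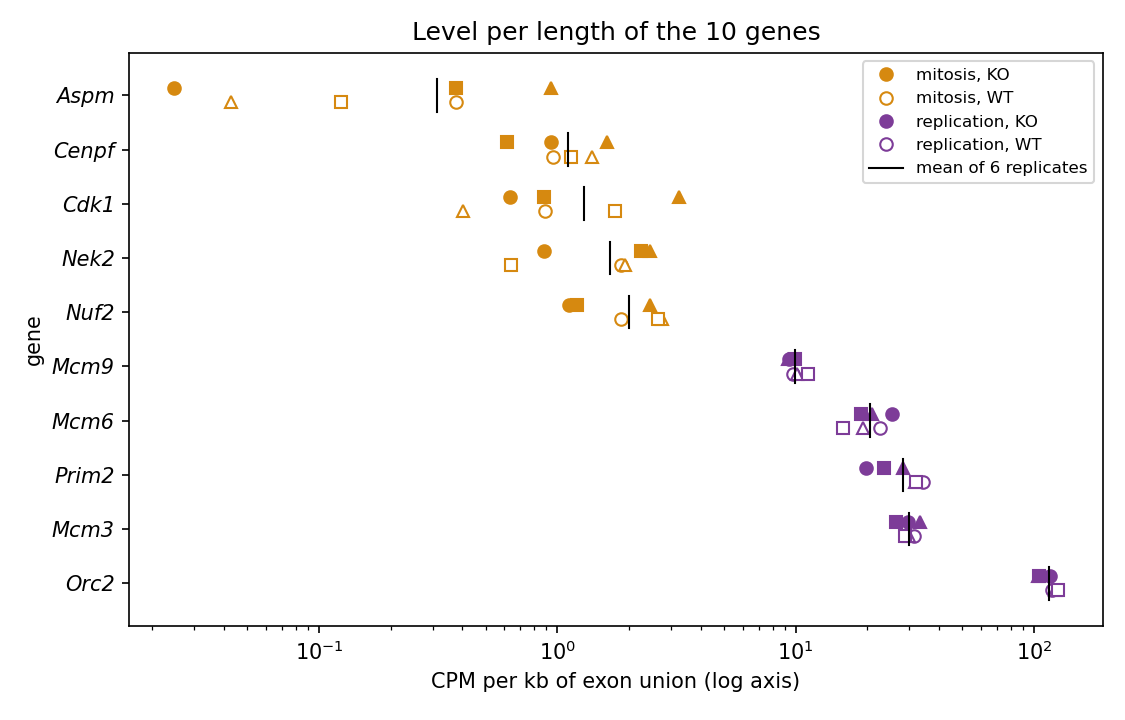
CPM per kb of merged exons (log axis) for each gene, lowest mean at the top, with filled symbols for the 3 KO replicates, open symbols for the 3 WT replicates (circle, triangle and square for replicates 1, 2 and 3) and a black line at the mean of 6. Every mitosis value lies at or below 3.24 CPM per kb and every replication value at or above 9.27 CPM per kb.

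The comparison of KO with WT asked whether these transcripts differ between oligodendrocytes of the KO and WT genotypes. None of the 10 genes passed the quasi-likelihood test of edgeR, adjusted by Benjamini-Hochberg over all 1484 genes tested, where 0% of genes were called higher and 0% lower. The lowest adjusted p among them was 0.927, for Prim2. At an unadjusted p under 0.05 there was 1 of the 10, again Prim2, beside 59 genes or 3.98% of all genes tested in either direction and 1.28% lower in KO. DESeq2 called 0.404% of all genes higher and 0.0674% lower at an adjusted p under 0.05, and 0 of the 10. The log2 fold change, KO over WT, was above 0 for 3 of 5 mitosis genes with a median of 0.35, and for 1 of 5 replication genes with a median of -0.12, beside a median of -0.0064 for all genes tested. Without KO replicate 2 it was above 0 for 2 of 5 mitosis genes with a median of -0.41. For the replication genes it was then above 0 for 1 of 5 with a median of -0.0998. Without WT replicate 3 the median of the mitosis genes was also below 0, at -0.0032, the value of Nek2. The sign of the mitosis median thus did not rest on KO replicate 2 alone. KO replicate 2 was the highest KO replicate for each mitosis gene, so a fall of their values without it follows from that choice. In bulk RNA, fewer cells of a type and less RNA per cell cannot be told apart. Nothing says that the replicates came from separate litters or days, so the p-values measure the spread between these samples.

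Among the mitosis genes, Cdk1, the kinase that drives mitotic entry (chromosome 10, 69335146 to 69352912 in mm10), had 3.13, 16.0 and 4.34 CPM in KO replicates 1, 2 and 3, against 4.37, 1.99 and 8.64 CPM in WT replicates 1, 2 and 3. One KO replicate was the highest of all 6 and the other KO values lay within the WT range. The counts behind these values were 11, 101 and 21 in KO and 23, 8 and 48 in WT, and the exact 95% Poisson interval of WT replicate 3, the next highest, ended at 11.5 CPM, below that of KO replicate 2. Its log2 fold change was 0.65 ± 0.85 (SE, edgeR adjusted p = 0.994), and it was -0.41 without KO replicate 2. These intervals cover counting error only.

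Aspm, the spindle pole protein whose human gene is mutated in primary microcephaly (chromosome 1, 139454188 to 139494088), had 0.285, 10.9 and 4.34 CPM in KO replicates, against 4.37, 0.497 and 1.44 CPM in WT replicates. That is 1, 69 and 21 reads in KO and 23, 2 and 8 reads in WT, the lowest counts of the 10 genes. The genotypes overlapped, with the highest and the lowest replicate both in KO. The log2 fold change was 1.30 ± 1.18 (SE, edgeR adjusted p = 0.994), and 0.17 without KO replicate 2.

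The kinetochore genes, like the other mitosis genes, had their highest KO value in replicate 2. Over both genotypes, Cenpf was highest in KO replicate 2 and Nuf2 in WT replicate 2. Cenpf (chromosome 1, 189640606 to 189688107) had 14.5, 24.8 and 9.51 CPM in KO, against 14.8, 21.6 and 17.6 CPM in WT. Nuf2, a subunit of the NDC80 complex that binds microtubules (chromosome 1, 169497934 to 169531464), had 7.12, 15.5 and 7.65 CPM in KO, against 11.8, 17.4 and 16.7 CPM in WT. For Nuf2, KO replicates 1 and 3 lay below all WT replicates and KO replicate 2 lay among them. The log2 fold change of Nuf2 was -0.59 ± 0.51 (SE, edgeR adjusted p = 0.994), and -1.04 without KO replicate 2, with an unadjusted edgeR p of 0.103. It was -0.40 without KO replicate 1 and -0.43 without KO replicate 3. That of Cenpf was -0.14 ± 0.47, and -0.58 without KO replicate 2. Nek2, the centrosome kinase (chromosome 1, 191821449 to 191833049), had 3.99, 11.1 and 10.1 CPM in KO, against 8.36, 8.69 and 2.88 CPM in WT, with overlapping genotypes and a log2 fold change of 0.35 ± 0.69 (SE). Exons of Gm38037 on the opposite strand cover 6.6% of the exon length of Nek2.

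**Figure D2:**
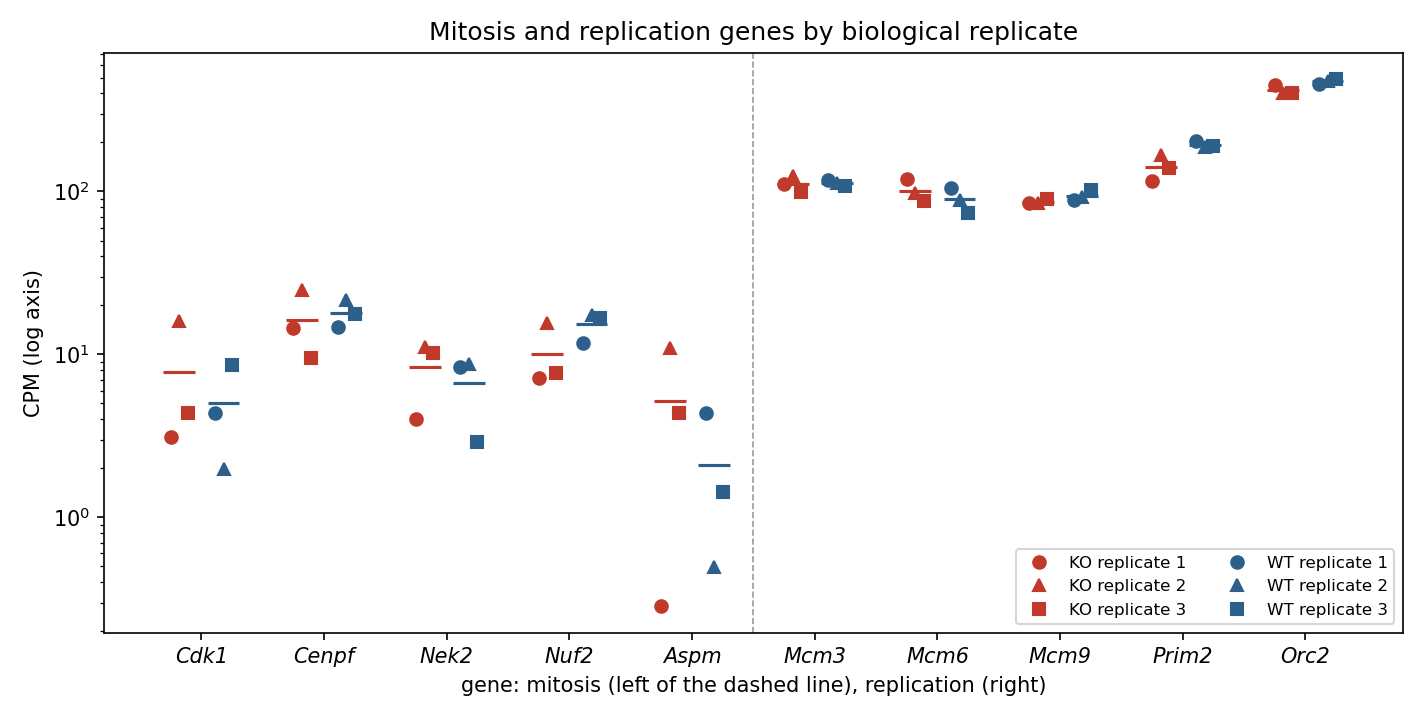
CPM (log axis) of each gene in each biological replicate, KO left of WT, with a line at the mean of 3. The mitosis genes, left of the dashed line, lie between 0.285 and 24.8 CPM and spread widely, and KO replicate 2 (red triangle) is the highest of 6 for Cdk1, Cenpf, Nek2 and Aspm. The replication genes lie between 74.0 and 488 CPM.

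KO replicate 2 was the highest of the 6 replicates for 4 of 5 mitosis genes and the highest KO replicate for 5 of 5, while for the replication genes it was highest of the 6 for 1 of 5 and the highest KO replicate for 2 of 5. The summed mitosis level was 29.0, 78.3 and 36.0 CPM in KO replicates 1, 2 and 3, against 43.7, 50.2 and 47.3 CPM in WT replicates. The means were 47.8 ± 26.7 CPM in KO and 47.1 ± 3.25 CPM in WT (SD, n = 3 each). Without KO replicate 2 the KO mean was 32.5 CPM, with both values below every WT value. That replicate was singled out for its high mitosis values, so this order follows in part from the choice. Some marker lists of other cell types were also highest in KO replicate 2, and others were not. The 3 progenitor markers in the table, of 20 listed (Neu4, Tnr and Serpine2), summed to 106, 248 and 146 CPM in KO, against 144, 44.0 and 98.5 CPM in WT. The 6 microglia and macrophage markers, of 25 listed, summed to 316, 625 and 304 CPM in KO, against 312, 235 and 310.0 CPM in WT. The 12 lymphocyte markers, of 18 listed, summed to 105, 307 and 46.3 CPM in KO, against 56.6, 40.7 and 41.2 CPM in WT. Ctla4, Icos, Ly9 and Slamf6 had no read in WT and at most 37, 27, 33 and 15 reads in a KO replicate. They did not pass the filter on low counts and were not tested. How many of all genes had no read in WT was not counted. These progenitor, microglia and lymphocyte lists were highest in KO replicate 2. Among WT replicates, WT replicate 2 had the highest mitosis sum and the lowest sum of each of these lists. The 3 astrocyte markers, of 16 listed, were highest in KO replicate 1 instead, at 1095, 741 and 484 CPM in KO, against 799, 409 and 356 CPM in WT. The endothelial, mural and fibroblast list was also highest in KO replicate 1, and the neuronal list in WT replicate 3. The part of any of these cell types in the mitosis values was not tested.

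**Figure D3:**
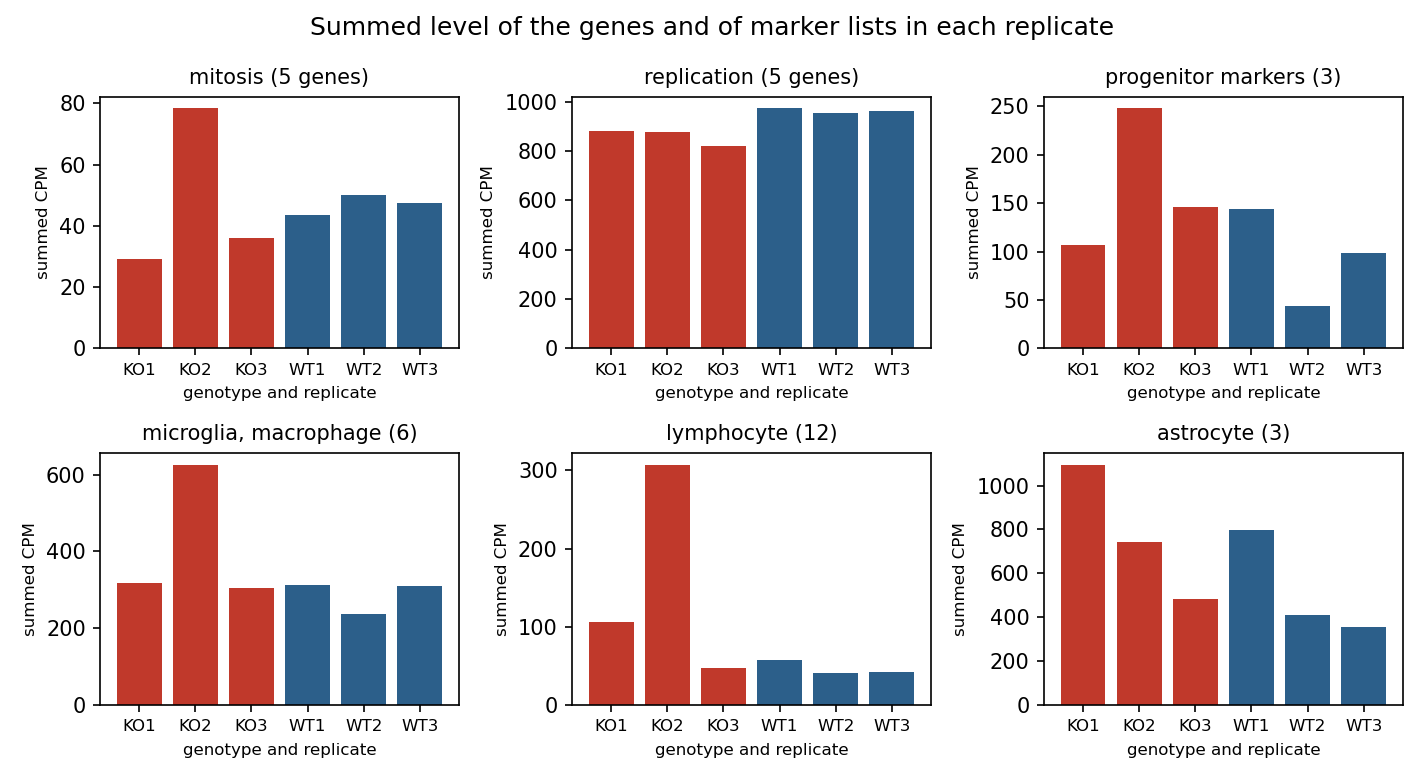
Summed CPM in each biological replicate (KO in red, WT in blue, bars from 0) of the 5 mitosis genes, the 5 replication genes and the markers of 4 other cell types, with the number of genes in each. The mitosis sum, the progenitor, the microglia and the lymphocyte markers are all highest in KO replicate 2, and the replication sum is not.

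The table holds few markers of the labelled cell type and no unsorted cells to compare with, so the identity of the cells was not tested. Of the 21 genes listed as oligodendrocyte markers, 5 are in the table, Adamts4, Nfasc, Tmeff2, Pea15a and Csrp1. They summed to between 75642 and 81324 CPM in KO and between 65254 and 74470 CPM in WT. The list was chosen with earlier results of these data known, and whether each gene is particular to oligodendrocytes was not tested. Most of the sum came from Csrp1, Tmeff2 and Pea15a, with means over both genotypes of 23377, 19186 and 18001 CPM. These sums did not overlap, with KO above WT, and the opposite order held for the replication sum given below. Of the 5 listed genes, 3 (Adamts4, Nfasc and Pea15a) had every KO value above every WT value, an order shown by 4.45% of all genes tested. Of the 5, 0 were called by edgeR. Adamts4 stood at 9385 ± 394 CPM in KO and 6580.2 ± 489 CPM in WT (SD, n = 3 each), with an edgeR adjusted p of 0.504. The part of these listed genes in the values of the replication genes was not tested. The 3 neuronal markers of 18 summed to between 222 and 302 CPM in KO and between 227 and 516 CPM in WT, and the 6 endothelial, mural and fibroblast markers of 22 to between 3444 and 4830 CPM in KO and between 3072 and 4830 CPM in WT, most of it Bsg. The other listed markers, Cnp among them, and Lmna itself are not analysed here, and the loss of Lmna was thus not checked. Counts in the analysed genes ranged from 3694551 to 6093336 per biological replicate and cover part of each library. CPM values here are therefore not on the scale of whole-library CPM.

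The replication genes varied less among replicates than the mitosis genes did. Mcm3, a subunit of the replicative helicase (chromosome 1, 20802966 to 20820312 in mm10), had 111, 125 and 98.7 CPM in KO replicates 1, 2 and 3, against 117, 112 and 108 CPM in WT replicates. Mcm6, another subunit (chromosome 1, 128331575 to 128359705), had 119, 97.3 and 87.9 CPM in KO, against 105, 89.2 and 74.0 CPM in WT. For both genes the genotypes overlapped, with log2 fold changes of -0.0091 ± 0.17 for Mcm3 and 0.18 ± 0.21 for Mcm6 (SE). The interval of 1.96 SE around the log2 fold change ran from -0.34 to 0.32 for Mcm3 and from -0.24 to 0.59 for Mcm6.

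Mcm9, a relative of the MCM subunits that acts with Mcm8 in recombination repair (chromosome 10, 53536315 to 53630006), had 85.4, 84.5 and 90.4 CPM in KO, against 88.7, 92.1 and 103 CPM in WT. KO replicate 3 lay above WT replicate 1, so the genotypes overlapped, with a log2 fold change of -0.12 ± 0.18 (SE, edgeR adjusted p = 0.994). Summed, the 3 MCM genes stood at 300 ± 20.2 CPM in KO and 296 ± 13.6 CPM in WT (SD, n = 3 each). Of the exon length of Mcm9, 19.2% overlaps exons of Asf1a, a histone chaperone gene on the opposite strand that stood at 510 ± 29.7 CPM in KO and 538 ± 55.9 CPM in WT. The sources used here do not state whether reads were counted by strand, and the Mcm9 value is uncertain to that extent.

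Prim2, the large primase subunit (chromosome 1, 33453808 to 33669808), had 117, 168 and 140 CPM in KO replicates 1, 2 and 3, against 203, 187 and 190 CPM in WT replicates. Every KO value lay below every WT value, and KO replicate 1 was the lowest. Prim2 stood at 141 ± 25.5 CPM in KO and 193 ± 8.27 CPM in WT (SD, n = 3 each), a log2 fold change of -0.45 ± 0.17 (SE). The unadjusted edgeR p was 0.0244 and the adjusted p 0.927, so Prim2 is not called. Without 1 replicate the log2 fold change lay between -0.59 and -0.33.

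Orc2, the origin recognition subunit (chromosome 1, 58462771 to 58505113), had 450, 401 and 404 CPM in KO, against 458, 475 and 488 CPM in WT. Here too every KO value lay below every WT value, KO replicate 1 only just. Orc2 stood at 419 ± 27.7 CPM in KO and 474 ± 14.8 CPM in WT (SD, n = 3 each), with a log2 fold change of -0.18 ± 0.11 (SE) and an edgeR adjusted p of 0.994. Of its exon length, 29.8% overlaps exons of Nif3l1 on the opposite strand, which stood at 277 ± 20.8 CPM in KO and 270 ± 29.1 CPM in WT. Prim2 and Orc2 were the 2 of 10 genes whose replicates did not overlap, both with KO below WT, an order shown by 4.04% of all genes tested. With them, the replication genes summed to 860 ± 34.0 CPM in KO and 964 ± 8.54 CPM in WT (SD, n = 3 each), with no overlap between genotypes.

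**Figure D4:**
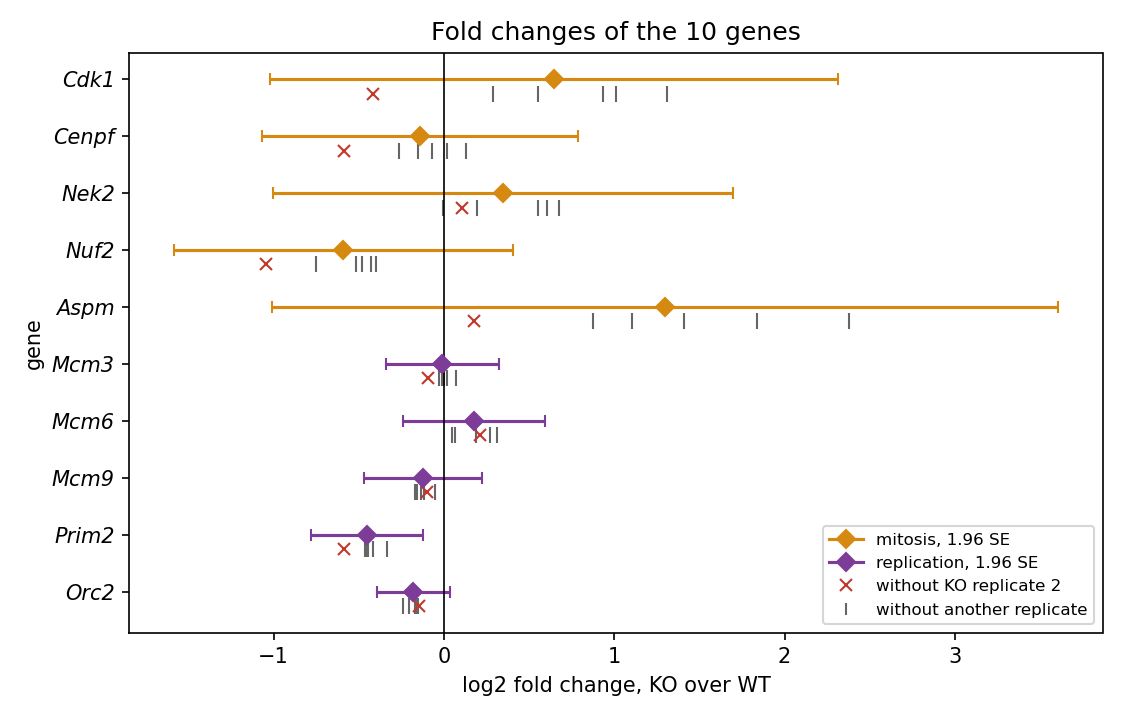
Log2 fold change, KO over WT, of each gene from edgeR (diamond) with 1.96 SE on each side, and below it the values with 1 replicate left out, without KO replicate 2 as a red cross. The intervals of the mitosis genes are wide. Their values move to the left without KO replicate 2, the highest KO replicate for each of them. The intervals of the replication genes are narrow and that of Prim2, from -0.78 to -0.13, lies below 0.

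The spread among replicates also differed between both groups of genes. The biological coefficient of variation estimated by edgeR for the single gene was 0.71 for Cdk1, 0.45 for Cenpf, 0.58 for Nek2, 0.46 for Nuf2 and 0.92 for Aspm. It was 0.21 for Mcm3, 0.24 for Mcm6, 0.22 for Mcm9, 0.19 for Prim2 and 0.14 for Orc2, beside a median of 0.22 over all genes tested. The highest replicate was 2.44 to 8.05 times the lowest for the mitosis genes other than Aspm, which had 1 read in its lowest, and 1.21 to 1.74 times for the replication genes. The mitosis genes also had the lower counts, and the part of depth in this spread was not tested. The 2 libraries of a replicate gave nearly the same counts, with 2 of 60 pairs of counts of these genes more than 1.96 SD of sampling noise apart.

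Other genes of the division cycle, from lists by role, gave 26 genes in the table beside the 10, of which 23 were tested. A listed gene outside the table was not analysed, and its absence says nothing about its expression. None was called by edgeR, 14 had a log2 fold change above 0 and 9 below 0, their median log2 fold change being 0.047, and the smallest unadjusted p was 0.105, for Pcnt. Counted with the 10 genes, the origin licensing list had 7 of 30 genes in the table and 0 of 7 called, at a median log2 fold change of -0.0091. The cell cycle control list had 7 of 52 in the table and 0 of 6 called, at a median of -0.046. Mitotic kinases, cyclins and exit factors had 5 of 47 in the table and 0 of 5 called, at a median of 0.35. Kinetochore genes had 8 of 45 in the table and 0 of 8 called, at a median of -0.028, and spindle and centrosome genes 7 of 56 in the table and 0 of 6 called, at a median of -0.079. The replisome list had 2 of 40 genes in the table, of which Prim2 alone was tested. Among origin genes, Fbxo5, the inhibitor of the anaphase-promoting complex also called Emi1, stood at 62.4 ± 10.6 CPM in KO and 57.0 ± 15.8 CPM in WT (SD, n = 3 each here and below). Dtl, which marks the licensing factor Cdt1 for destruction in S phase, had 0, 12.2 and 2.90 CPM in KO, against 1.52, 1.49 and 5.94 CPM in WT. It was highest in KO replicate 2, as were 4 of the 5 mitosis genes. Dna2, a nuclease and helicase of lagging strand synthesis, stood at 4.49 ± 1.85 CPM in KO and 8.05 ± 1.85 CPM in WT, with overlapping replicates.

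Several genes of the lists were well above the mitosis genes in level. Among kinases, Cdk18 stood at 4130 ± 863 CPM in KO and 4112 ± 529 CPM in WT, and Cdk17 at 916 ± 43.4 CPM in KO and 1017 ± 96.7 CPM in WT. Both are PCTAIRE kinases, which are known from cells that no longer divide. Cdk19, a kinase of the Mediator complex, stood at 1551 ± 102 CPM in KO and 1660 ± 281 CPM in WT. Fzr1, also called Cdh1, the activator of the anaphase-promoting complex in G1 and in resting cells, stood at 872 ± 86.9 CPM in KO and 803 ± 45.0 CPM in WT. Nek7, a relative of Nek2 with a further role in the NLRP3 inflammasome, had 957, 858 and 852 CPM in KO, against 727, 843 and 836 CPM in WT. Its replicates did not overlap, with KO above WT, as for the 4.45% of genes given above, and its log2 fold change was 0.15 ± 0.11 (SE, edgeR adjusted p = 0.994).

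Of the kinetochore list, Zwint stood at 426 ± 51.0 CPM in KO and 409 ± 58.6 CPM in WT. Per kb it stood at 96.1 CPM in KO and 92.2 CPM in WT, far above Nuf2 and Cenpf. Cenpl, of the inner kinetochore, stood at 46.5 ± 2.43 CPM in KO and 50.4 ± 10.6 CPM in WT, and Hjurp, the chaperone of the centromeric histone CENP-A, at 45.3 ± 4.15 CPM in KO and 35.7 ± 18.5 CPM in WT. At the centrosome, which cells keep after division, Pcnt stood at 231 ± 9.20 CPM in KO and 281 ± 54.0 CPM in WT. Cep290, of the cilium base, stood at 103 ± 16.8 CPM in KO and 134 ± 37.0 CPM in WT, and Cep350 at 305 ± 24.6 CPM in KO and 259 ± 54.6 CPM in WT. All overlapped between genotypes. Ube2t, a ubiquitin-conjugating enzyme of the Fanconi anaemia pathway, had 14.8, 23.7 and 9.10 CPM in KO, against 12.7, 8.69 and 10.8 CPM in WT. The genes that did not pass the filter were Exo1, E2f7 and the mitotic kinesin Kif14, with at most 8, 18 and 4 reads in any replicate.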

How the data were processed

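RNA sequencing gave raw read counts per gene and library, deposited by the authors for 12 libraries and used here without rescaling. The submitters' processing notes name mm10 as the build and, with no order, HISAT2, featureCounts, SAMtools 1.4.1, fastp, FastQC, CASAVA 1.8.2 and DESeq2 1.38.1. Parameters, annotation and strand use were not given in the sources used here. The table held 2398 complete lines. The last line, cut short, was not used. Of the identifiers, 2226 matched a RefSeq symbol for GRCm38 and 172 did not.

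Counts of the paired libraries of a replicate lay within or close to sampling noise (chi-square per degree of freedom between 1.00 and 1.06, against 38.1 to 140 between replicates) and were summed and counted as 1 sample. KO was compared with WT over all genes in edgeR 4.0.16 under R 4.3.3 (TMM, filterByExpr, robust quasi-likelihood fit, Benjamini-Hochberg at 0.05). SE is the log2 fold change divided by the root of F. The fits were also run on simulated counts with the same dispersion for every gene. The genes here differ in dispersion, so that run does not bear on single genes and no result rests on it. With 3 against 3, an exact permutation test of 1 gene cannot go below p = 0.1. Lengths are merged exons or longest transcripts of GENCODE M21, promoters those of RefSeq. The alternatives were other size factors, filters and tests, a replicate block, single libraries, other lengths and leaving out each replicate. The genes and lists were chosen with earlier results of these data known. Besides the 10 genes, the 3 tested genes of highest CPM and the 1 of smallest p of each list were named.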

Additional observations from a re-analysis of the deposited data

How the results depend on the processing

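Of 147 refits of the 10 fold changes, 0 were called and 138 kept their direction. Mcm3 changed sign with relative log expression factors (0.0010), DESeq2 (0.0016) and the first library alone (0.035), and lay between -0.095 and 0.071 without 1 replicate. Cdk1 lay between -0.41 and 1.31 without 1 replicate, Cenpf between -0.58 and 0.13, and Nek2 between -0.0032 and 0.67. Aspm could not be refitted with a mean CPM of at least 5 or with single libraries, where it failed the filter. Counts of called genes moved from 0 higher and 0 lower to 6 and 1 with DESeq2, and the cause was not tested. Deviations of log2 CPM from the genotype mean correlated at 0.0033, -0.33 and 0.15 between same-numbered KO and WT replicates. The numbers gave no sign of pairing, though with 3 replicates per genotype this check is weak. The replicate block left 0 genes called, with 49 at an unadjusted p under 0.05. The mitosis share of the replication level was 5.54% in KO and 4.89% in WT without length, and 5.29% in KO and 3.91% in WT by medians. By longest transcripts it was 3.58% in KO and 3.15% in WT. Without 1 replicate it lay between 2.35% and 4.18% in KO and between 2.84% and 2.99% in WT. The mitosis genes had 1 to 157 reads per replicate, which limits the precision of their values.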
